A study of Mus musculus with 5 samples.

Results

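Granulosa cells of mice lacking C/EBPα and C/EBPβ in these cells were compared with wild-type granulosa cells 24 h after human chorionic gonadotropin (hCG), when the ruptured follicle turns into a corpus luteum. The comparison rests on 2 of the 5 arrays of the series, the knockout at 24 h and the wild type at 24 h, taken by their labels. Both groups were 24 days old and had received equine chorionic gonadotropin (eCG), a stimulus of follicle growth, for 48 h before hCG. The hCG acts on the receptor of luteinizing hormone and so starts ovulation and luteinization. The knockout carried fl/fl alleles of both genes (labelled CEBPα/β) together with Cyp19-cre, in which the Cyp19 promoter drives Cre recombinase in granulosa cells. The labels give the control only as wild type, with no allele named, and do not say how many mice each RNA came from. The other arrays, a knockout and a wild type at 8 h and a knockout at 4 h after hCG, came from mice of 23 days. Each group is 1 array, so no difference below has a replicate check or a p-value.

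C/EBPα and C/EBPβ are basic leucine zipper transcription factors that bind DNA as dimers and are known from the liver, fat and myeloid cells, where they drive differentiation. In the ovary both are induced in granulosa cells by luteinizing hormone, downstream of epidermal growth factor-like ligands and the kinases ERK1 and ERK2. Luteinizing granulosa cells leave the cell cycle, take up and make cholesterol, convert it to progesterone, and draw in blood vessels.

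The deposited table held 45101 probe sets, of which 34958 carried 1 gene symbol. These gave 18194 genes, each represented by the probe set with the highest mean log2 intensity over the 2 arrays. A gene counted as measured when the higher of its intensities reached a floor of 19, the 40th percentile of all values on these arrays, and 13553 genes did. A gene was called lower or higher when it was measured and the higher intensity was 2 or more times the lower (log2 difference of 1). Where the lower intensity lay under the floor, the fold was taken against the floor and is written as at least.

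By this rule 512 of 13553 genes, or 3.78%, were lower in the knockout, and 408, or 3.01%, were higher, together 6.79%. These shares are the ones to set beside the count of called genes in each list below. The lists were chosen with earlier results of these data known. Over all lists, markers included, 118 of 961 measured genes were lower and 48 higher. A list share above that of all genes therefore describes the list and is no test of it. Lists with few calls lie near them, such as TGF-beta genes with 2 of 35 lower and 1 higher. The knockout had the larger number of strong deficits, with 17 genes at least 10-fold below wild type and 3 as far above. The median log2 difference of all measured genes was 0.05, and 5 in 100 genes lay under -0.87. Averaging all probe sets of a gene, those under the floor included, left 423 lower and 249 higher. Lowering the threshold to 1.5-fold gave 1366 lower genes and 1517 higher genes, so the excess of lower genes held for larger differences.

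Median intensity was 31 on the wild-type array and 32 on the knockout array. The 18 hybridization control probe sets differed by a median of 0.01 on the log2 scale, with an SD of 0.04. Log2 differences of several probe sets of a gene varied with an SD of 0.40 over 6167 genes, a technical spread only. Of 682 further probe sets of called genes that were above the floor, 610 went the same way as the chosen probe set and 284 passed the rule themselves. Further probe sets also passed in 51.0% of cases for lower genes and in 31.7% for higher genes. Granulosa cell markers were present on both arrays. Inha, the inhibin α subunit, had an intensity of 15340 (wild type) against 17426 (knockout), and the ovarian transcription factor gene Foxl2 had 3037 and 3125.

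The targeted genes were both lower in the array labelled knockout. Cebpb had an intensity of 3976 (wild type) against 85 (knockout) on the chosen probe set, 46.8-fold lower, and 1571 against 23 on the other. Cebpa was 352 (wild type) against 38 (knockout), 9.26-fold lower. The labels do not name the deleted part of either gene, so the probe sets may lie outside the deleted sequence. Of 6 further genes of the family and of the Tribbles pseudokinases, which promote C/EBP breakdown, none was called. Cebpd was 66 against 44, Cebpg 282 against 296, and Trib2 908 against 1405.

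**Figure D1:**
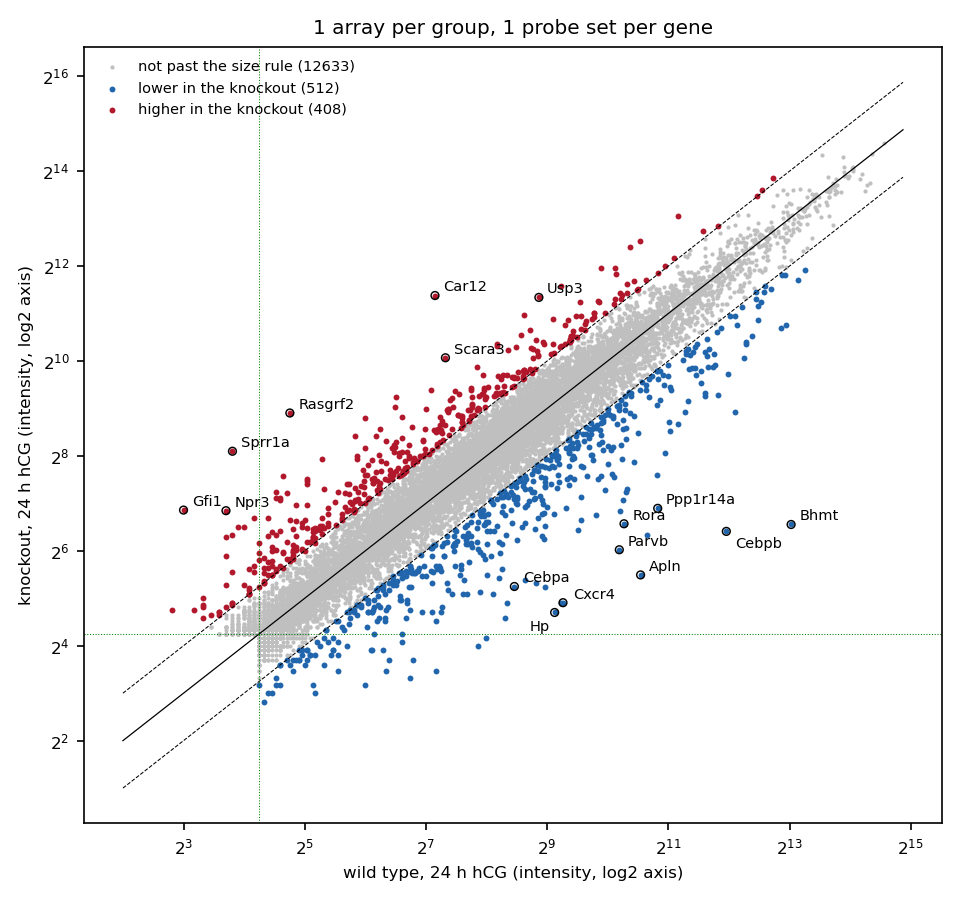
Intensity of each measured gene in the knockout (vertical, log2 axis) against wild type (horizontal, log2 axis) at 24 h, 1 array each. The solid line marks equal values, the dashed lines a 2-fold difference and the dotted lines the floor of 19; Bhmt and Cebpb lie farthest below the solid line, and Car12 and Rasgrf2 far above it.

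The largest deficit of all measured genes was in Bhmt, which encodes betaine-homocysteine methyltransferase, an enzyme that remakes methionine from homocysteine. Its intensity was 8343 (wild type) against 94 (knockout), 88.8-fold lower. At 8 h it was 93 (wild type) against 38 (knockout), so that only the wild type at 24 h was high. After Bhmt and Cebpb came Apln, the apelin peptide gene, at 1491 against 45 (33.1-fold), and Hp, which encodes the haemoglobin binder haptoglobin, at 558 against 26 (21.5-fold). The chemokine receptor gene Cxcr4 followed at 614 against 30 (20.5-fold). Cxcr4 had been at 2567 and 2238 at 8 h, so its knockout value was near that of wild type then. It was far under it at 24 h.

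DNA sequence next to the start sites of some of these genes is given to show what the C/EBP core letters look like there and how common they are. Of the named genes past the rule, 145 of 187 had an entry in a RefSeq table of promoters (GRCm38.p6), from which the 250 bases before the start were searched. The motif TTGCNNAA, a C/EBP-type core, was searched on both strands and was found for 44 of 397 lower genes (11.1%), 38 of 321 higher genes (11.8%) and 952 of all 10883 measured genes with an entry (8.75%). The shares for lower and higher genes therefore lay close together. A sterol element core, TCACNCCAC, was found for 7 of the lower genes (1.76%), 3 of the higher genes (0.935%) and 145 of all (1.33%). No named gene held overlapping matches of these motifs in this window. The following windows run 5′ to 3′ on the strand of the gene, with motif matches in capitals. They show Bhmt as the gene of largest difference, Saa3, Ptgs2 and Abcb1b as lower genes with a C/EBP-type core, and Hmgcs1 as a cholesterol gene with a sterol element core.
Bhmt: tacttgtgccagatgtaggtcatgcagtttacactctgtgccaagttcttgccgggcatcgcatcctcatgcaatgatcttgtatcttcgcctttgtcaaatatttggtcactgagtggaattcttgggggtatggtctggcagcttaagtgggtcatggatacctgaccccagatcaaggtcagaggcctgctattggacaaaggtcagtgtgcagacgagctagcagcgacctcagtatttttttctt
Saa3: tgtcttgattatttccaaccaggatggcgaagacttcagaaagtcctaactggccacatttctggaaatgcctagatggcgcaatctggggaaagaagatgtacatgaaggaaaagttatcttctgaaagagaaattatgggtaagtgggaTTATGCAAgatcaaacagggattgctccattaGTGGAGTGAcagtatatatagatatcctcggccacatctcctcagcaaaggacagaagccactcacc
Ptgs2: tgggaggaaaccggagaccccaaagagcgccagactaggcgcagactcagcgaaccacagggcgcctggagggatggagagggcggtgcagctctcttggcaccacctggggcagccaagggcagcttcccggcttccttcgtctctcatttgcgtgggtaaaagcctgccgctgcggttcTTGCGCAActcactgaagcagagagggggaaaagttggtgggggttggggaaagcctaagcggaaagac
Abcb1b: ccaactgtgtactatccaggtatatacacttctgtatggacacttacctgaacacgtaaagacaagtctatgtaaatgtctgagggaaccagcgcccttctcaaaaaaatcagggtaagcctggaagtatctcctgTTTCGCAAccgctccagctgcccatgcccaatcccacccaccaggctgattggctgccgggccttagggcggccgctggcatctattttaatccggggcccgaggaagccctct
Hmgcs1: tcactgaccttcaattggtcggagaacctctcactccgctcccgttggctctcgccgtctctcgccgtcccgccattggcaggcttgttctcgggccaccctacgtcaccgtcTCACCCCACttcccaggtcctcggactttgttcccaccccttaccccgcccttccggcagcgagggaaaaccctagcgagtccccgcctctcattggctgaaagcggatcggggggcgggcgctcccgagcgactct
The Bhmt window (chr13:93637759-93638008, minus strand) held none of these letters. The Saa3 window (chr7:46715677-46715926, minus strand) held TTATGCAA, beginning 99 bases before the start, and the reverse of the sterol core, GTGGAGTGA. The Ptgs2 window (chr1:150099781-150100030, plus strand) held the fully palindromic form TTGCGCAA, beginning 69 bases before the start. The Abcb1b window (chr5:8797897-8798146, plus strand) held TTTCGCAA, and the Hmgcs1 window (chr13:119690101-119690350, plus strand) held TCACCCCAC, beginning 137 bases before the start. A match describes letters only, and its absence concerns this window only.

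Of the 20 genes furthest below wild type at 24 h, 11 were also called lower at 8 h and none was called higher. The targeted genes Cebpa and Cebpb are among these 11. Over all measured genes, 3.85% were lower and 1.51% higher at 8 h. Several had been low in both genotypes at 8 h and were high only in wild type at 24 h. Mmel1, which encodes a membrane metallopeptidase of the neprilysin family, was 28 (wild type) against 13 (knockout) at 8 h, then 601 against 30 at 24 h. Parvb, an adaptor that binds integrin-linked kinase, was 69 and 46 at 8 h and 1169 against 65 at 24 h. Mpzl2, a cell adhesion gene, was 18 and 20 at 8 h and 255 against 18 at 24 h, at least 13.4-fold lower. Pik3c2g, a lipid kinase gene, was 23 and 13 at 8 h and 231 against 16 at 24 h, at least 12.2-fold lower.

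Others were already apart at 8 h. Ppp1r14a, an inhibitor of myosin phosphatase, was 382 against 84 at 8 h and 1814 against 119 at 24 h (15.2-fold lower). Rora, a nuclear receptor of the circadian clock, was 454 against 69 and then 1234 against 95, and 5 of its 8 other probe sets also passed the rule. Abcb1b, a multidrug export pump, was 687 against 100 and then 1797 against 193 (9.31-fold). Slc1a5, a glutamine and neutral amino acid transporter, was 151 against 55 and then 323 against 30 (10.8-fold).

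The rest of these 20 genes were Slc12a8 (wild type 1600, knockout 81), Tlcd4 (317 and 24), the divalent metal transporter gene Slc11a1 (499 and 38), Mapkapk3, a kinase downstream of p38 and ERK (1175 and 115), D630023F18Rik (452 and 40) and 1110064A23Rik (398 and 42). For Slc12a8, Mapkapk3 and D630023F18Rik the other probe set also passed the rule, whereas the 3 further probe sets of Tlcd4 all lay under the floor. Parvb, Abcb1b and Slc1a5 have 2 probe sets each, and the chosen ones differed by -4.17, -3.22 and -3.43. On averaging they stood at -2.45, -1.96 and -1.85, still past the rule, so the folds given for them are those of the chosen probe set.

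Fewer genes stood as far above wild type. Car12, a membrane carbonic anhydrase, was 142 (wild type) against 2664 (knockout), 18.8-fold higher, and another of its 3 probe sets gave 40 against 178. Rasgrf2, an exchange factor that activates Ras, was 27 against 479 (17.7-fold), a difference seen on 1 of its 3 probe sets, the others giving 20 against 27 and 13 against 13. Sprr1a, which encodes a small proline-rich protein of cornified cells, was 14 against 274, at least 14.4-fold higher, and was 18 against 101 at 8 h. Usp3, a ubiquitin protease gene, was 466 against 2592 (5.56-fold), with all 4 of its further probe sets past the rule. Kl, the Klotho co-receptor, was called higher at both times, with 110 against 563 at 8 h and 26 against 149 at 24 h (5.73-fold).

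Some of the higher genes are best known from muscle or matrix. Tnnt1, a slow skeletal troponin, was 64 against 448, Ldb3, a Z-disc protein gene, 23 against 138, and Smpx, a small muscle protein gene, 24 against 134 (5.58-fold). Tnxb, tenascin X, was 91 against 607 (6.67-fold), and Comp, cartilage oligomeric matrix protein, 39 against 245 (6.28-fold). Comp lay far higher at 8 h, at 642 (wild type) against 2015 (knockout), so the 24 h values are both low for this gene. The 2 further probe sets of Ldb3 gave 14 against 14 and 12 against 22.

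The rest of the 20 genes furthest above wild type were Lrmp (wild type 25, knockout 192), the scavenger receptor gene Scara3 (160 and 1073), the semaphorin gene Sema3e (23 and 151), Gfi1, a transcriptional repressor (8 and 116), Npr3, the natriuretic peptide clearance receptor (13 and 115), Doc2b (57 and 343), Nt5e, an enzyme that makes adenosine (90 and 524), Cntnap5a (24 and 139), Efcab3 (33 and 183) and Klhl30 (18 and 104). Among them Sema3e passed on 2 of its 3 other probe sets, whereas Npr3, Doc2b and Nt5e passed on the chosen probe set alone, and Nt5e lost its call when its probe sets were averaged. Of the 20 genes, 8 were also called higher at 8 h, against 1.51% of all measured genes. Cntnap5a and Smpx were called lower then, against 3.85% of all.

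**Figure D2:**
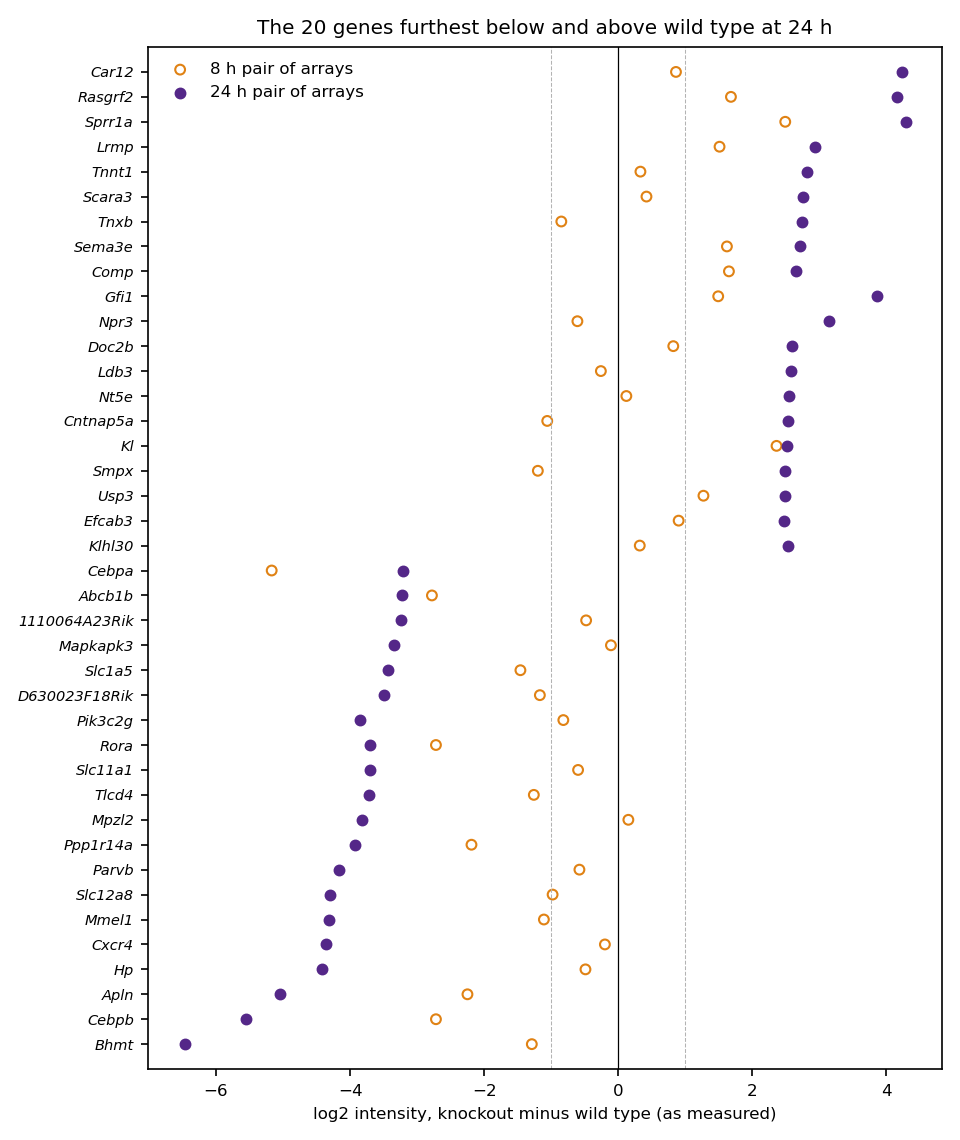
Log2 difference between knockout and wild type (horizontal) of the 20 genes furthest below and the 20 furthest above wild type at 24 h, Cebpa and Cebpb among them, for the 24 h arrays (filled) and the 8 h arrays (open). The genes are ordered by the difference where lower values were set to the floor; Cebpa is farther below wild type at 8 h than at 24 h, and Cntnap5a and Smpx lie on opposite sides at the 2 times.

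Most enzymes of cholesterol synthesis were lower in the knockout. Of 18 enzymes measured, 13 were lower and none higher, against 3.78% of all genes lower, and 17 were under their wild-type value, with a median log2 difference of -1.35. In pathway order, the calls began with Hmgcs1, which makes HMG-CoA (wild type 6221, knockout 3052). They went on with the mevalonate kinase gene Mvk (364 and 141), the decarboxylase gene Mvd (237 and 63), the isomerase gene Idi1 (1088 and 447) and Fdps, farnesyl diphosphate synthase (5334 and 1485). Pmvk, the kinase between Mvk and Mvd, was 285 and 246, short of the rule.

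At the branch point to sterols the chosen probe sets showed a gap. Fdft1, squalene synthase, was 1965 (wild type) against 1938 (knockout), and Ggps1, which leads to geranylgeranyl diphosphate, was 230 and 248. When its 4 probe sets were averaged, Fdft1 stood at -0.34, still short of the rule. Past the branch point, Sqle, squalene epoxidase, was 2.72-fold lower, the lanosterol synthase gene Lss 2.47-fold and the demethylase gene Cyp51 2.50-fold. Msmo1 was 3.06-fold, Nsdhl 3.02-fold and Hsd17b7 3.01-fold lower, and these act together to remove the methyl groups of lanosterol. The final steps were also lower, with Sc5d at 2466 and 488 (5.05-fold) and Dhcr7 at 3419 and 933 (3.66-fold). Ebp and Tm7sf2 differed by -0.54 and -0.56.

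Calls in this list were not all equally firm. Fdps and Msmo1 missed the rule when their probe sets were averaged, at -0.92 and -0.84. The second probe set of Fdps lay under the floor, at 5 and 5, and that of Msmo1 gave 42 and 40. Hmgcs1, at -1.03 on the chosen probe set, missed the rule after quantile normalization or after removal of the intensity trend. Each of its 5 probe sets passed the rule on the deposited values, and their average was -1.52. At 8 h 1 of the 18 enzymes, Dhcr7, was called lower (2877 and 1120), and the list's median was -0.26.

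Genes that sense and move sterols differed less. None of 12 was called, with a median of -0.38. Srebf2, the transcription factor that drives the cholesterol enzymes, was 641 (wild type) against 513 (knockout), its escort gene Scap 7658 and 5114, and its retention factor gene Insig1 906 and 609. The cholesterol exporter gene Abca1 was 2040 and 1263, a difference of -0.69, and Nr1h3, a sterol receptor, 31 and 19 (-0.71).

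Fatty acid genes had 4 of 20 lower and none higher, with a median of -0.43. The calls were Acss2, which makes acetyl-CoA from acetate (399 and 122, 3.27-fold), Gpam, the acyltransferase that opens glycerolipid synthesis (9760 and 3854, 2.53-fold), the elongase gene Elovl6 (2637 and 1125, 2.34-fold) and Acly, which supplies cytosolic acetyl-CoA (6634 and 2920, 2.27-fold). Elovl6 and Acly both stood at -0.82 when their probe sets were averaged. Fasn, the synthase itself, was 667 and 579, and Scd1 and Scd2, the desaturases, were 1268 and 967, and 12507 and 10064. Scd2 stood at -1.30 when its 3 probe sets were averaged.

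Among the genes of progesterone synthesis, the RNA of the entry step was lower. Star, which brings cholesterol into mitochondria, was 1259 (wild type) against 327 (knockout), 3.85-fold lower, whereas at 8 h it was 9231 and 7421. Downstream, Cyp11a1, the side-chain cleavage enzyme, was 19408 and 12292 (-0.66), its electron donor gene Fdx1 19922 and 13375 (-0.57), and Hsd3b1, which makes progesterone, 18695 and 15708 (-0.25). Scarb1, the receptor for high-density lipoprotein cholesterol, was 9528 and 5106 (-0.90), also short of the rule.

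Over the list of 19 steroid genes, 3 were lower and none higher, with a median of -0.15. Besides Star these were Hsd17b7 (2766 and 920), which serves both cholesterol and estradiol synthesis, and Hsd11b1, which regenerates glucocorticoid (88 and 42, 2.10-fold). Of the nuclear receptors of this pathway, Nr5a1 was 447 and 647 and Nr5a2 5131 and 3563. Akr1c18, which inactivates progesterone, was 145 and 112.

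**Figure D3:**
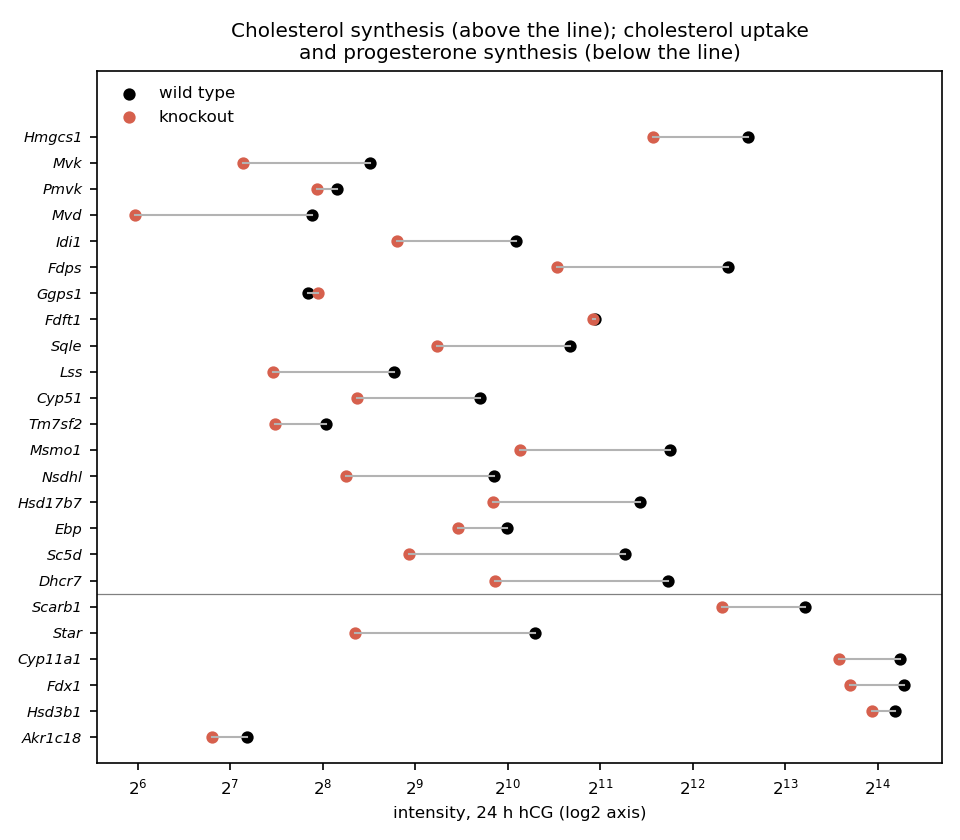
Intensity at 24 h (horizontal, log2 axis) in wild type (black) and knockout (red), 1 array each, for the cholesterol enzymes in pathway order (above the line) and for Scarb1 and progesterone synthesis genes (below the line). On the chosen probe sets Fdft1, at 1965 and 1938, and Ggps1 break the run of lower values. Star is the most separated gene below the line.

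Among hormone receptors and prolactin signalling genes, 3 of 14 were lower and none higher, with a median of -0.04. Ptgfr, the prostaglandin F receptor that ends luteal life, was 920 (wild type) against 182 (knockout) (5.05-fold lower). Oxtr, the oxytocin receptor, was 3213 and 938 (3.43-fold). Cish, a feedback target of prolactin and STAT5, was 204 and 93 (2.19-fold). Beside it Stat5a was 410 and 235, Stat5b 623 and 419, and Socs2, another such target, 3334 and 3336. Stat5a was not called on the chosen probe set, but stood at -1.45 when its 2 probe sets were averaged. Ghr, the growth hormone receptor, was 423 and 793, and Jak2 287 and 530, both short of the rule in the other direction.

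Many glycolysis genes were lower in the knockout. Of 23 genes measured, 10 were lower and 1 higher, and 20 were under their wild-type value, with a median of -0.57. Hk2, the inducible hexokinase, was 1073 (wild type) against 197 (knockout) (5.45-fold). Pfkfb3, which makes the activator of phosphofructokinase, was 252 and 57 (4.42-fold), and Pgam1, phosphoglycerate mutase, 4979 and 1351 (3.69-fold). Ldha, lactate dehydrogenase A, was 5709 and 1874 (3.05-fold), while the B form, Ldhb, was 2400 and 3358. The hexokinase Hk1 was 618 and 745. On the chosen probe sets the paired isoenzyme genes thus differed in direction, without Hk1 or Ldhb passing the rule. With all probe sets averaged, Hk1 stood at -0.17 and Ldhb at 0.53, so the direction of Hk1 depended on the probe set.

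The other lower genes of the list were Pfkp (2.49-fold), Aldoc (2.21-fold), Pgk1 (2.19-fold), the mitophagy gene Bnip3 (2.17-fold), the oxygen sensor gene Egln3 (2.65-fold) and the lactate exporter gene Slc16a3 (at least 1.95-fold). Eno2, at 17 and 34, was the higher one. Pfkp, Aldoc, Pgk1 and Egln3 lost their calls when their probe sets were averaged, and Slc16a3 and Eno2 where lower values were set to the floor. Without the less specific probe sets the median was -1.04. The glucose carrier gene Slc2a1 was 930 and 501 (-0.89), short of the rule. At 8 h 3 members were lower and 1 higher, with a median of 0.11.

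Mitochondrial and pentose phosphate genes gave few calls. Of 23 genes of pyruvate dehydrogenase and the citric acid cycle, 20 were under their wild-type value (median -0.26), and Idh3a alone was lower (1855 and 888), a call lost when its probe sets were averaged (-0.07). The cytosolic isocitrate dehydrogenase gene Idh1 was 13503 and 7419 (-0.86), and stood at -1.14 when its 2 probe sets were averaged. Of 31 respiratory chain and ATP synthase subunits, Uqcrc1 alone was lower (2832 and 1314), and the median was -0.02, or 0.05 after quantile normalization. Of 6 pentose phosphate genes none was called, with a median of -0.31 and the largest differences in Taldo1 and Rpe, both at -0.52.

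Bhmt stood apart within its pathway. Of 17 genes of betaine, methionine and transsulfuration metabolism, Bhmt and Cth were lower and none was higher, with a median of -0.36. Cth, which makes cysteine from cystathionine, was 138 (wild type) against 40 (knockout) (3.45-fold). Cbs, the enzyme before it, was 123 and 132, and Ahcy, which releases homocysteine, 1049 and 1129. Gnmt was 37 and 42, Mtr, the alternative route to methionine, 82 and 111, and the betaine-forming Chdh 29 and 34.

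Amino acid supply genes gave a few calls. Of 23 transporters, 4 were lower and none higher, with a median of -0.14. Besides Slc1a5 these were Slc7a8 (1199 and 245, 4.89-fold), its heavy chain partner gene Slc3a2 (3250 and 1222, 2.66-fold) and the cationic carrier gene Slc7a2 (83 and 28, 2.96-fold, at -0.81 when its probe sets were averaged). Slc7a5, the other light chain that pairs with Slc3a2, was 1240 and 1188. In the list of serine synthesis and amino acid stress genes, 3 of 13 were lower and 1 higher, with a median of -0.36. Asns, asparagine synthetase, was 581 and 194 (2.99-fold), Psat1, of serine synthesis, 142 and 70 (2.03-fold, lost when its probe sets were averaged), and the stress factor gene Atf5 776 and 217 (3.58-fold). The higher one was Vldlr, described below with the lipid genes. Phgdh, which opens serine synthesis, was 938 and 513 (-0.87), and Atf4 2113 and 1344 (-0.65), both short of the rule.

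Genes known as C/EBP targets in liver, fat and myeloid cells were mostly under the floor, and the ones with signal were mostly lower in the knockout. Of 25 such genes 14 lay under the floor on both arrays, among them the fibrinogen genes Fga, Fgb and Fgg, Adipoq, Lep and Pck1. Of the 11 with signal, 6 were lower and none higher, with a median of -1.03. That median is set by the floor, and was -0.19 over all 25 genes with no floor. Beside Hp, the calls were Camp, a cathelicidin (144 and 23, 6.26-fold), Saa3, an acute-phase serum amyloid (757 and 141, 5.37-fold), Lcn2, an iron-siderophore binder (69 and 15, at least 3.63-fold), the protease inhibitor gene Serpina3n (66 and 31) and Cp, ceruloplasmin (96 and 47). Cp lost its call when its 8 probe sets were averaged.

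Camp and Lcn2 are also genes of neutrophils, and most markers of leukocytes lay lower on the same array. Of 17 leukocyte markers, 3 were lower in the knockout, namely S100a8 (65 and 21), Lyz2 (943 and 413) and Ptprc (74 and 33), with a median of -0.32. In the whole list 13 were under their wild-type value and 4 above it, the latter including C1qa (103 and 109) and C1qb (116 and 131). Ptprc stood at -0.49 when its probe sets were averaged and was then not called. The neutrophil granule genes Ngp, Mpo and Elane lay at or near the floor in both groups, at 13 and 13, 16 and 14, and 19 and 20. The summed intensity of the leukocyte list was 2569 (wild type) against 1707 (knockout). Their part in the differences of Camp and Lcn2 was not tested. Because the samples are bulk RNA, fewer cells of a type and less RNA per cell cannot be told apart.

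Several glutathione transferases were higher in the knockout. In a list of 33 glutathione and antioxidant genes, 5 were higher and 3 lower, with a median of 0.11 that turned to -0.05 without the less specific probe sets. All of the higher ones were transferases, namely Gstm6 (wild type 64, knockout 287, 4.48-fold), Gsta2 (19 and 62, 3.26-fold), Gsta4 (711 and 1988, 2.80-fold), Gstm1 (1381 and 3285, 2.38-fold) and Gstm2 (1197 and 2515, 2.10-fold). Close copies within this family can share probes, so the members are not independent. The lower ones were Gss, glutathione synthetase (289 and 92, 3.14-fold), the secreted peroxidase gene Gpx3 (3562 and 1561, 2.28-fold) and the omega-class transferase gene Gsto1 (1708 and 825, 2.07-fold, at -0.98 when its probe sets were averaged). At 8 h Gsta4 was 5480 and 13703, and Gsta2 1839 and 5025, so these genes lay above wild type at both times while their levels were lower at 24 h.

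Lipid uptake and storage genes went both ways, with 3 of 23 lower and 2 higher and a median of -0.11 that turned to 0.03 without the less specific probe sets. Vldlr, a lipoprotein receptor, was 653 (wild type) against 1861 (knockout) (2.85-fold higher), and the fatty acid binder gene Fabp3 329 and 1211 (3.68-fold higher). Plin5, a lipid droplet coat gene, was 1811 and 785 (2.31-fold lower). Fabp4 was 96 and 31 and lost its call when its probe sets were averaged. Mgll, a monoglyceride lipase gene, was 152 and 26, but without the less specific probe sets its difference was 0.12 and so turned sign. That value comes from a dim probe set (34 and 37), and the 2 others gave 55 and 13, and 128 and 27, past the rule in the lower direction. In the retinoid list, 2 of 16 were higher and 1 lower, with a median of 0.04 whose sign changed under 6 of 10 alternatives. Aldh1a1, which makes retinoic acid, was 2300 and 8536 (3.71-fold higher), its neighbour in sequence Aldh1a7 124 and 320, and the retinol carrier gene Rbp4 56 and 26. Aldh1a1 had been lower in the knockout at 8 h, at 3611 and 1822, though short of the rule.

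**Figure D4:**
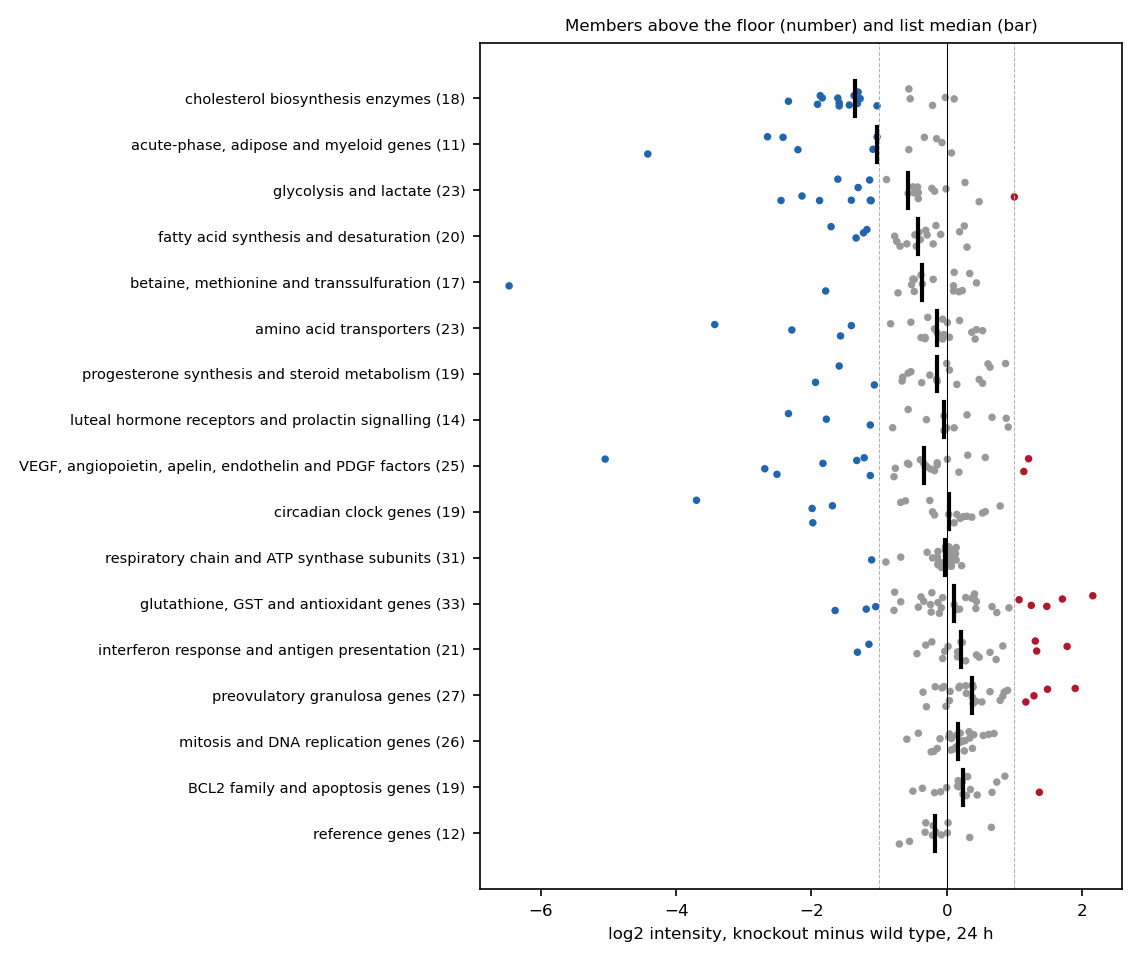
Log2 difference between knockout and wild type at 24 h (horizontal) for each measured member of 17 gene lists, with blue for lower, red for higher and grey for not past the rule; the bar is the list median and the dashed lines a 2-fold difference. Cholesterol enzymes have the lowest median, -1.35, and preovulatory granulosa genes the highest, 0.38.

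Genes of the granulosa cell before ovulation gave calls in 1 direction. Of 27, 4 were higher and none lower, with a median of 0.38, and 6 lay below wild type. The calls were Grem1, a BMP antagonist (wild type 27, knockout 101, 3.74-fold), Mro (57 and 160, 2.81-fold), the kit ligand gene Kitl (1281 and 3139, 2.45-fold) and Kctd14 (3041 and 6825, 2.24-fold). Kitl stood at 0.31 when its probe sets were averaged. Short of the rule on the same side were Foxo1, a factor of growing follicles (1460 and 2722), Inhba, the activin subunit (3102 and 5359), and Amhr2 (4073 and 7255). The receptor gene Fshr was 264 and 347, and Amh 486 and 431.

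Of 35 genes of TGF-beta, activin and BMP signalling, Grem1 was higher and Fstl3 and Id2 were lower, with a median of 0.16. Fstl3, an activin binder, was 214 and 72 (2.97-fold), and Id2, a BMP target, 4739 and 2251 (2.11-fold), a call lost after quantile normalization. Follistatin itself, Fst, was 3743 and 2939. Of 24 WNT genes, the antagonist gene Sfrp2 alone was lower (202 and 71, 2.85-fold), with a median of -0.01. Of 20 Notch and hedgehog genes, Hes1 (179 and 72) and Notch3 (94 and 46) were lower, with a median of 0.09 that was -0.04 when all probe sets were averaged, where Notch3 was no longer called.

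Genes of ovulation gave calls in 1 direction. Of 19 measured, 4 were lower and none higher, with a median of -0.37. Ereg, an EGF-like ligand, was 75 (wild type) against 24 (knockout) (3.12-fold), after 1019 and 443 at 8 h. Ptgs2, the prostaglandin synthase of ovulation, was 47 and 11, at least 2.47-fold lower, after 865 and 409. Pcsk5, a proprotein convertase, was 2589 and 915 (2.83-fold). Edn2, a contractile peptide of ovulation, was 208 and 83 (2.51-fold lower) after 105 and 603 at 8 h, when it was called higher. In the list of 17 prostaglandin genes, Ptgfr and Ptgs2 were lower and the carrier gene Slco2a1 higher (167 and 509, 3.05-fold), with a median of -0.06 that turned to 0.26 above a floor at the 60th percentile. Slco2a1 stood at 0.92 when its probe sets were averaged.

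Feedback genes of the ERK pathway split. Of 20, Dusp4 and Ier3 were higher and Dusp1 was lower, with a median of 0.08 that was -0.02 when all probe sets were averaged. Dusp1, a phosphatase of the stress kinases, was 1981 (wild type) against 268 (knockout) (7.39-fold lower). Dusp4, a nuclear ERK phosphatase, was 33 and 178 (5.39-fold higher), and Ier3 948 and 3970 (4.19-fold higher). Dusp6, a cytosolic ERK phosphatase, was 158 and 303 and Spred1, an inhibitor of Ras signalling, 275 and 507, both short of the rule.

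Of 21 immediate early factors, 3 were higher and 2 lower, with a median of 0.02 and a sign that turned with the scaling (-0.03 after median centring). Klf2 was 154 and 425 (2.76-fold higher), Egr1 1100 and 2369 (2.15-fold higher) and Egr2 20 and 46. Myc was 1322 and 476 (2.78-fold lower), and the AP-1 gene Fosl1 43 and 14, at least 2.26-fold lower. Egr2 lost its call when its probe sets were averaged. Among 10 Ras exchange factors above the floor, Rasgrf2 alone was called, with a median of 0.30.

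Cyclic nucleotide and growth factor genes had few calls. Of 26 cyclic AMP genes, Prkar1b, a regulatory subunit of protein kinase A (97 and 454, 4.68-fold), and Pde1b, a phosphodiesterase (70 and 172, 2.46-fold), were higher and Pde4b lower (41 and 20, 2.05-fold), with a median of 0.05 that was -0.01 after median centring. Prkar1b lost its call when its 5 probe sets were averaged, and the average for Pde4b lay under the floor, which left it without a call. Of 8 natriuretic and cyclic GMP genes above the floor, Npr3 alone was called, with a median of 0.37. In the insulin-like growth factor list, 4 of 22 were lower and 2 higher, with a median of -0.03 that went as high as 0.10 under the alternatives. Pik3c2g, described above, was the member farthest below wild type. Binding protein genes made up the other lower members, with Igfbp4 at 2300 and 409 (5.62-fold lower), Igfbp3 at 78 and 15 (at least 4.11-fold lower) and Igfbp2 at 2769 and 1247 (2.22-fold lower). Irs1 was 661 and 1360, and Pik3r1 490 and 1349, both adaptors of insulin signalling and both higher. Pik3r1 lost its call when its probe sets were averaged, and Irs1 after median centring. The growth factor gene itself, Igf1, was 842 and 1024.

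Genes of the circadian clock gave calls in 1 direction. Of 19 clock genes, 4 were lower and none higher, against 3.78% of all genes lower and 3.01% higher. The median was 0.03 and changed sign with the probe set rule and the floor. Rora drives transcription of Arntl, which encodes the BMAL1 subunit, and Arntl was 278 (wild type) against 86 (knockout) (3.23-fold). Npas2, a partner of BMAL1, was 107 and 27 (3.96-fold), and Bhlhe40, a repressor, 661 and 167 (3.96-fold). The other partner, Clock, was 304 and 256, and the period genes Per1 and Per2 were 254 and 281, and 45 and 46. Dbp was 507 and 877, short of the rule on the other side. Arntl stood at -0.88 when its 2 probe sets were averaged. The hour of day at which each group was collected is not given in the labels.

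Vascular factors gave more lower than higher calls, and so did endothelial markers. Of 25 factor and receptor genes, 7 were lower and 2 higher, with a median of -0.34. The ligands Apln, Vegfa (891 and 383, 2.33-fold), Pdgfb (276 and 126), Angpt1 (97 and 17, at least 5.11-fold) and Edn2 were lower, as were the receptors Nrp1 (998 and 155, 6.44-fold) and Aplnr (573 and 161, 3.56-fold). Vegfc, the lymphatic factor (22 and 51), and Pdgfa (173 and 380) were higher. Vegfa, Vegfc and Aplnr lost their calls when their probe sets were averaged, at -0.96, 0.93 and -0.99.

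Of 18 endothelial markers, 3 were lower and 1 higher, and 15 were under their wild-type value, with a median of -0.63. Emcn was 195 and 34 (5.74-fold lower), Cldn5 149 and 51 (2.92-fold) and Cdh5 88 and 39 (2.26-fold, lost when its probe sets were averaged). Ramp2, an adrenomedullin receptor subunit that is not limited to endothelium, was 288 and 1280 (4.44-fold higher). The summed intensity of all 18 markers was 1928 (wild type) against 2189 (knockout), and without Ramp2 it was 1640 and 909, so the direction of the sum rests on Ramp2. The part of these cells in the differences of Aplnr, Nrp1 and the other vascular genes was not tested.

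Guidance receptors and chemokines gave a few more calls. Of 34 semaphorin, plexin and ephrin genes, 5 were higher and 2 lower, with a median of 0.12. Plxnd1, the receptor of Sema3e, was 638 and 120 (5.32-fold lower) while Sema3e was higher. The others higher were Epha7 (76 and 173), Sema4b (350 and 800), Sema3a (28 and 63) and Sema4d (120 and 256), and these semaphorin calls apart from Sema3e were lost on averaging the probe sets. Of 18 chemokine genes measured, Cxcr4, Ackr3 (679 and 244, 2.78-fold) and Ccl2 (84 and 40) were lower and none higher, with a median of -0.23. Cxcr4 and Ackr3 both bind Cxcl12, which was 324 and 300.

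Matrix and protease genes mostly stayed within the rule. Of 33 collagens, laminins and matrix glycoproteins, 26 were under their wild-type value (median -0.29), but only Tnc was lower (386 and 90, 4.29-fold, at -0.53 when its 2 probe sets were averaged) and Tnxb higher. Of 26 proteases and inhibitors, 5 were lower and 3 higher, with a median of -0.03 that turned to 0.19 above a floor at the 60th percentile. Timp4, a metalloproteinase inhibitor, was 726 and 87 (8.34-fold lower) after 15 and 10 at 8 h, and Timp3 was 911 and 400 (2.28-fold lower). Timp2 (757 and 1968), the stromelysin gene Mmp11 (1474 and 5873, 3.98-fold) and Adamts9 (394 and 899) were higher, Timp2 and Adamts9 not when their probe sets were averaged. Mmp19 was 33 and 15, at least 1.74-fold lower and not called where lower values were set to the floor, and Mmel1 and Pcsk5 complete the lower ones.

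Adhesion and cytoskeleton genes centred near wild type. Of 25 integrin genes, Parvb and Itga9 (338 and 117) were lower and Itgb3 (424 and 1245, 2.94-fold) and Itga6 (1586 and 3359, 2.12-fold) higher, with a median of -0.03 that went as high as 0.08 under the alternatives. Of 25 contractile genes, Ppp1r14a and the calponin gene Cnn2 (433 and 152, 2.85-fold) were lower and Tnnt1 higher, with a median of -0.04. Of 19 junction and keratin genes, Krt7 (180 and 85) and Cldn1 (31 and 14, at least 1.63-fold) were lower, with a median of -0.15. Itga9 and Cldn1 lost their calls, the former when its probe sets were averaged and the latter where lower values were set to the floor. On averaging, Cldn1 lay under the floor and had no call.

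Export pumps repeated the pattern of Abcb1b in its closest relative. Abcb1a was 153 (wild type) against 28 (knockout) (5.46-fold lower), on 2 probe sets with a mean difference of -2.62. Probes for these copies may share transcripts. Of 15 transporters of this class, 3 were lower, including Abcc9 (98 and 44), and Abcc5 was higher (252 and 522), with a median of -0.03 that went as high as 0.09 under the alternatives. Abcc9 and Abcc5 lost their calls when their probe sets were averaged. Of 13 carbonic anhydrase and bicarbonate genes, Car12 was higher and Car3 (33 and 13) and Car13 (24 and 12) were lower near the floor, with a median of 0.00. Both lower calls were lost where lower values were set to the floor, and on averaging the probe sets both genes lay under it.

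Antigen presentation genes went in opposite directions within the class I pathway. Of 21 interferon and presentation genes, 3 were higher and 2 lower, with a median of 0.21. The heavy chain genes H2-K1 (wild type 5699, knockout 2277, 2.50-fold) and H2-D1 (4405 and 1982, 2.22-fold) were lower. The immunoproteasome genes Psmb9 (97 and 334, 3.44-fold) and Psmb8 (218 and 542, 2.49-fold) and the peptide transporter gene Tap2 (185 and 466, 2.52-fold) were higher, and the light chain B2m was 4850 and 4907. H2-D1 and Psmb8 lost their calls when their probe sets were averaged, and heavy chain genes are close copies whose probes can cross-react. At 8 h H2-K1 was 2417 and 2152 and Psmb9 73 and 67, so none of these was apart then.

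Cell cycle exit and survival genes mostly showed small differences on the chosen probe sets. None of 26 mitosis and replication genes was called, with a median of 0.17 that was -0.01 when all probe sets were averaged, and Bub1b (311 and 504) and Mcm7 (1728 and 2655) lay farthest out. Of 18 cyclin D and inhibitor genes, Ccnd1 was lower (137 and 59, 2.32-fold) and the p21 gene Cdkn1a higher (802 and 1844, 2.30-fold), with a median of 0.14. The p27 gene Cdkn1b, a brake of luteal cells, was 3554 and 2332, but stood at -1.30 when its 2 probe sets were averaged. Of 19 BCL2 family and apoptosis genes, Bmf, which opposes BCL2, was higher (246 and 636, 2.59-fold), with a median of 0.24 and 4 below wild type. Bmf and Ccnd1 lost their calls when their probe sets were averaged. Of 22 chaperone and unfolded protein response genes, Pdia3 alone was lower (7509 and 3572, at -0.42 when its probe sets were averaged), with a median of -0.16. None of 12 reference genes was called, with a median of -0.18, Actb at 16901 and 16972, and the largest differences in Tfrc (-0.70) and Polr2a (0.66).

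Markers of other cell types were present in both preparations, some at high intensity, such as the stroma gene Col3a1 at 6211 and 3955. Stroma, pericyte and smooth muscle markers had a summed intensity of 15596 (wild type) against 9743 (knockout), with 3 of 15 lower, namely Mgp (3759 and 1652), Pdgfrb (483 and 221) and Rgs5 (107 and 51), and a median of -0.44. Of 7 theca markers, Aldh1a1 alone was called, and Cyp17a1 was 131 and 240, with a median of 0.16. Krt7 alone of 10 surface epithelium markers was called, with a median of -0.50. None of 13 oocyte or 3 erythroid markers was called, with medians of 0.24 and 0.07 (the latter as low as -0.06 under the alternatives), the largest differences being in Omt2a (0.97) and Omt2b (0.76), and in Slc4a1 (0.79) and Hbb-b2 (-0.20). Of 11 granulosa markers none was called, with a median of 0.18 that was -0.02 when all probe sets were averaged, and Gata4 (176 and 318) and Amhr2 lay farthest out. Pdgfrb and Rgs5 lost their calls when their probe sets were averaged.

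**Figure D5:**
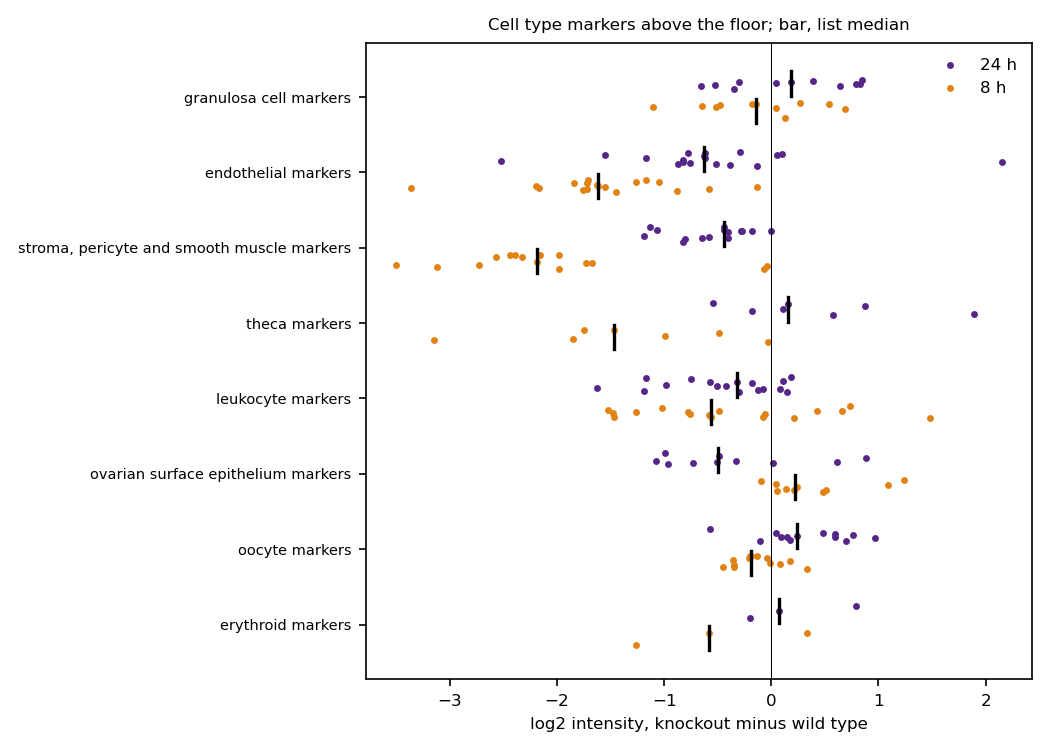
Log2 difference between knockout and wild type (horizontal) for markers of each cell type that were above the floor, at 24 h (purple) and at 8 h (orange), with the list median as a bar. Endothelial and stroma medians lie at -0.63 and -0.44 at 24 h, against -1.62 and -2.19 at 8 h, and granulosa medians near 0 at both times.

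The 8 h arrays are separate from those at 24 h, so the genotype difference at 8 h is an independent pair of libraries. At 8 h Cebpb was 7436 (wild type) against 1127 (knockout), 6.60-fold lower, and Cebpa 685 against 19, 36.1-fold lower. The knockout array thus held more Cebpb signal at 8 h than at 24 h, when it was 85. At 8 h 3.85% of measured genes were lower and 1.51% higher. Among those lower were 13 of 15 stroma markers and 15 of 18 endothelial markers. The stroma markers summed to 24850 (wild type) against 5414 (knockout) at 8 h. The part of these cells in the genes lower at both times was not tested. Of 13251 genes measured at both times, 135 were lower at both, which is 27.7% of those lower at 24 h and 27.5% of those lower at 8 h. Higher at both were 62 genes, 15.9% of those at 24 h and 33.7% of those at 8 h. Of the 13 cholesterol enzymes lower at 24 h only Dhcr7 was lower at 8 h, and of the 4 clock genes only Rora. Of the glycolysis genes Hk2, Pfkfb3 and Bnip3 were lower and Eno2 higher at both times. Abcb1b, Rora, Igfbp4, Nrp1 and Ptgfr were also lower at both times and Kl, Dusp4, Ier3 and Slco2a1 higher at both. The difference between the 2 times was not tested.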

How the data were processed

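Total RNA of granulosa cells was labelled as biotinylated cRNA from 5 ug and hybridized to 1 array per group, per the labels' protocols. The authors' deposited values are intensities on a linear scale in whole numbers. Per the submitters' processing notes affy and RMA were used, with no versions. The sources used here give no genome build. Rounding leaves steps of 0.08 on the log2 scale at the floor. Log2 was taken before every comparison. Gene symbols came from the annotation of the array platform and were brought up to date by Entrez identifier from a RefSeq table (34754 of 34958 matched); 932 with several symbols and 9211 with none listed were left out. Groups came from sample titles, and the knockout at 4 h was used in no comparison.

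With 1 array per group a size rule took the place of a test. The members, the 46 gene lists and the 8 marker lists were chosen with earlier results of these data known. The genes named are the 20 furthest below and above wild type, the targeted genes, members of lists past the rule (or the 2 of largest difference where none passed), and members needed to give a pathway in order. Named genes also include some that were chosen after their values were seen. Alternatives were other probe set choices, scalings, floors and fold thresholds, run in Python 3.11.15 with numpy 2.4.6, pandas 2.3.3 and statsmodels 0.14.6. The number of arrays limits the precision.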

Additional observations from a re-analysis of the deposited data

Results flagged for a closer look

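In 8 genes the genotype difference passed the rule in opposite directions at 8 h and 24 h, and the difference between the times was not tested. Met, the hepatocyte growth factor receptor, had intensities of 353 (wild type) and 68 (knockout) at 8 h, then 57 and 117 at 24 h, where the log2 difference was 1.04. Edn2 was 105 and 603, then 208 and 83 (-1.33). Smpx was 131 and 57, then 24 and 134 (2.48), and Cntnap5a 23 and 11, then 24 and 139 (2.53). Spns2, a lipid transporter, was 56 and 24, then 186 and 636 (1.77). Vegfc was 100 and 50, then 22 and 51 (1.21), Gm2102 322 and 141, then 26 and 57 (1.13), and Sv2c 16 and 36, then 26 and 13 (-1.0). Cntnap5a at 8 h and Sv2c at both times lay near the floor. On averaging the probe sets at 24 h, Met (0.52), Gm2102 (0.57) and Vegfc (0.93) were no longer past the rule. Each value is 1 array.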

How the results depend on the processing

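Of 187 named genes, 134 kept their call under all 10 alternatives in which they were measured, and 53 lost it under at least 1. The mean of all probe sets ended 43 of these calls and left 4 more genes (Pde4b, Car3, Car13 and Cldn1) under the floor, more than any other alternative, and moved the count of higher genes from 408 to 249. That mean takes in probe sets under the floor, such as 1 of Aldoc at 15 (wild type) and 11 (knockout). It also takes in probe sets with signal that fell short of the rule, such as 1 of Pgk1 at 3392 and 2101. Which kind of probe set ended each call was not tested. Mgll turned sign, to 0.12, without the less specific probe sets. At 1.5-fold 1366 genes were lower and 1517 higher, at 3-fold 184 and 103, and at 4-fold 103 and 43, as the thresholds themselves fix. Of 54 list medians, 51 moved by less than the technical spread of 0.40 in all alternatives. That spread is of single probe sets, so it is a wide bound for the median of a list. The glycolysis median went to -1.04 without the less specific probe sets, with fewer members measured. The acute-phase median went to -0.26 with the floor at the 25th percentile, -2.31 at the 60th, -0.19 with no floor and 0.00 where lower values were set to the floor, since each floor keeps other members. Medians of 17 lists, all within 0.18 of 0, changed sign under some alternative. Of further probe sets, 94.8% went the same way with the floor at the 60th percentile, against 89.4%. No paired analysis was possible because each group is 1 array. Low intensity limits what can be seen near the floor.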
